A study of Mus musculus with 14 samples.

Results

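Glycogen is the branched polymer in which animal cells store glucose, and 9 genes of its synthesis and breakdown were followed in brown adipose tissue (BAT), the fat depot that makes heat. They were taken from the table of gene counts by their symbols, Gys1, Gys2, Gyg, Gbe1, Pygl, Pygb, Ugp2, Ppp1r3c and Stbd1, which are 9 of 55471 genes, and all 9 were found and passed the filter on low counts. The tissue came from male mice aged 10 weeks, either wild type (WT) or with a knockout of CLSTN3B limited to adipocytes (AdC3KO), and every animal had spent 2 weeks at thermoneutrality, 30 °C. Sequencing covered 3 libraries of each genotype at 30 °C and 4 of each after a further 6 h at 4 °C. The promoter that drove the adipocyte deletion was not given in the sources used here, nor were the alleles that the WT mice carry. Since the labels leave unsaid whether 1 library means 1 animal, every p-value refers to spread among libraries, which may be technical.

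UDP-glucose pyrophosphorylase (Ugp2) makes the activated glucose that is added to glycogen, glycogenin (Gyg) starts the chain, glycogen synthase (Gys1, the form of muscle and most tissues, and Gys2, the form best known from liver) lengthens it, and the branching enzyme (Gbe1) sets its branches. Glycogen phosphorylase (Pygl, the liver form, and Pygb, the brain form) releases glucose phosphate from chain ends, Ppp1r3c brings protein phosphatase 1 to glycogen, where it activates the synthase and restrains the phosphorylase, and Stbd1 ties glycogen to membranes and to its uptake by lysosomes. Brown fat is known to hold a glycogen store that cold exposure draws on, and phosphorylase is activated there by adrenergic signals through cyclic AMP.

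The labels were checked on marker genes. CPM are counts per mega (M) gene counts, scaled by TMM factors. At 30 °C Clstn3 stood at 207 ± 23.2 CPM in the 3 WT libraries and at 15.8 ± 1.31 CPM in the 3 of AdC3KO (SD), and at 4 °C every AdC3KO library, at most 77.9 CPM, was below every WT library, at least 970.04 CPM. The table holds 1 gene for the locus, so the 2 kinds of transcript, CLSTN3B and full-length Clstn3, are counted together. The summed level of 8 brown adipocyte markers, Ucp1 among them, was 5960 to 7812 CPM at 30 °C and 17791 to 24894 CPM at 4 °C, and none of the 8 was at 0. The higher sum came from Ucp1 (1625 to 12686 CPM in WT), Dio2 (14.8 to 3344 CPM) and Elovl3, which rose in the cold in both genotypes. The other 5 had log2 changes of −0.64 to 0.19 in WT, where Adipoq, Cidea and Prdm16 were called lower, and −0.59 to 0.01 in AdC3KO, where Adipoq was. Summed over 13 skeletal muscle markers, 5 libraries stood apart at 35.8 to 512 CPM, against 1.76 to 3.83 CPM in the other 9. These 5 were WT library 3 (221 CPM) and AdC3KO libraries 1 (77.1 CPM) and 2 (35.8 CPM) at 30 °C, and WT library 2 (53.3 CPM) and AdC3KO library 3 (512 CPM) at 4 °C. Gene counts summed to 19.9 M to 29.0 M per library, so that even the lowest of the 9 genes, Stbd1, had 1198 counts over the 3 WT libraries at 30 °C.

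On GRCm38 the 9 genes lie on 9 chromosomes, each of them protein coding. Gys1 (ENSMUSG00000003865) spans chr7:45434844-45456619 on the plus strand, and Gys2 (ENSMUSG00000030244) spans chr6:142422613-142473109 on the minus strand. Gyg (ENSMUSG00000019528) is at chr3:20122084-20155317 on the minus strand, Gbe1 (ENSMUSG00000022707) at chr16:70313949-70569716 on the plus strand and Ugp2 (ENSMUSG00000001891) at chr11:21321138-21371201 on the minus strand. The phosphorylase genes are Pygl (ENSMUSG00000021069), at chr12:70190811-70231488 on the minus strand, and Pygb (ENSMUSG00000033059), at chr2:150786735-150831758 on the plus strand. Ppp1r3c (ENSMUSG00000067279) is at chr19:36731731-36736653 on the minus strand and Stbd1 (ENSMUSG00000047963) at chr5:92603041-92606579 on the plus strand. Gys1 shares 310 exonic bases with Ruvbl2 on the opposite strand, 6.47% of its exon length. The strand setting of the counting was not given in the sources used here, so how reads from that stretch were counted is not known. No 50-base stretch of transcript was shared between Gys1 and Gys2 or between Pygl and Pygb, and 0.273% of the stretches of Pygb occurred in its muscle relative Pygm.

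Promoter windows of RefSeq (GRCm38.p6, 250 bases before to 50 after the start site) matched 8 of the 9 genes by symbol, with 2 start sites for Ugp2. They were searched on both strands for the cyclic AMP response element TGACGTCA, its shorter form TGACG, the E-box CACGTG and the core of the hypoxia response element ACGTG, which every E-box also holds. No member had the full element, which 1.79% of all 32851 windows hold. The shorter form was in windows of Gyg, Pygl and Pygb, 3 of the 9 member windows, against 20.8% of all windows. The ACGTG core was in those of Gyg, Pygl, Pygb, Ugp2 and Ppp1r3c, 5 of the 9 member windows, against 19.6%. The E-box was in 2 of the 9 member windows, against 7.15% of all windows. It lies 9 bases after the start in Gyg, where it overlaps the shorter form, and 104 bases before it in Ppp1r3c. The 250 bases before the start are shown for Pygl, Pygb and Ugp2, whose transcripts fell or rose in the cold in both genotypes, with the shorter form and the ACGTG core in capitals on whichever strand they were found. Gyg has its motifs after the start site and is not shown. Ppp1r3g, the phosphatase subunit with the largest rise among the other genes of the pathway, is shown beside them, and in it both motifs overlap. Neither start site of Ugp2 matched the start of a GENCODE transcript, and that of Ppp1r3g was not compared. A GENCODE transcript began within the windows of Pygl and Pygb, which does not place it at the same start site. The Pygl window lies inside the span of its gene. The stretch shown for Pygb ends inside the span of its gene, which begins at chr2:150786735. Which start sites the counted transcripts use was not tested. A motif match describes the letters of the window and is not evidence of binding.
Pygl (chr12:70227684-70227933, minus strand): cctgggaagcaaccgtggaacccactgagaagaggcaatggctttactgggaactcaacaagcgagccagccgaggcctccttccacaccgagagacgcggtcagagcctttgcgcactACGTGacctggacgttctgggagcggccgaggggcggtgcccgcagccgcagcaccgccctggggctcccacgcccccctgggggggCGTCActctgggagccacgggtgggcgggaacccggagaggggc
Pygb (chr2:150786546-150786795, plus strand): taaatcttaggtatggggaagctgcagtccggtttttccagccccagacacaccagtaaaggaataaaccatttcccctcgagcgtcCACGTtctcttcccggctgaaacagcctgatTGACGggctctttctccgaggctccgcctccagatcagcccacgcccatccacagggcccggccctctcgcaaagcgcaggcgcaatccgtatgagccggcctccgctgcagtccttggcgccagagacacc
Ugp2, first start site (chr11:21371268-21371517, minus strand): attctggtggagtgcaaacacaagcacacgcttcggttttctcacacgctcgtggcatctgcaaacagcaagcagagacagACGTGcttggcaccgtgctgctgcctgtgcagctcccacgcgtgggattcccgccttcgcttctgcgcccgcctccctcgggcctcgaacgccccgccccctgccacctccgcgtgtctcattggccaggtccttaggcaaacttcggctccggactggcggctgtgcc
Ppp1r3g (chr13:35967656-35967905, plus strand): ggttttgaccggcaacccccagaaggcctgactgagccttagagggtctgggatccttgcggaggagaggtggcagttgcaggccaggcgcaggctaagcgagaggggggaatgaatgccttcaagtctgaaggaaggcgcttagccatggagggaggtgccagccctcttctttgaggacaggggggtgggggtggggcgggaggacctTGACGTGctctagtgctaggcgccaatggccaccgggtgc

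At 30 °C the transcripts of the breakdown enzyme Pygl were the most abundant of the 9 per kb of exon, and those of Stbd1 the least. In WT the levels were 65.0 ± 12.5 CPM per kb for Pygl, 52.5 ± 8.31 for Gbe1, 49.2 ± 6.66 for Ugp2, 42.6 ± 4.65 for Gyg, 35.1 ± 1.94 for Gys1 and 32.5 ± 1.90 for Pygb (SD, n = 3). Further down were Ppp1r3c at 14.1 ± 2.36, Gys2 at 12.2 ± 1.39 and Stbd1 at 6.97 ± 0.447 CPM per kb. In that order the libraries of neighbours overlapped except between Gyg and Gys1, Pygb and Ppp1r3c, and Gys2 and Stbd1. AdC3KO at 30 °C had the same order except that Gyg (45.5 ± 4.07) stood above Ugp2 (43.5 ± 6.44), and those overlapped.

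At 4 °C Ugp2 stood first and Pygb next to last in both genotypes. In WT Ugp2 averaged 96.3 ± 13.1 CPM per kb, followed by Gyg (60.7 ± 12.4), Gbe1 (57.9 ± 11.9), Pygl (40.6 ± 16.7), Gys1 (31.6 ± 4.54), Gys2 (19.6 ± 5.22), Ppp1r3c (18.0 ± 6.55), Pygb (13.6 ± 1.70) and Stbd1 (6.58 ± 0.405) (SD, n = 4). Neighbours overlapped except between Ugp2 and Gyg and between Pygb and Stbd1. AdC3KO had the same order, from Ugp2 at 86.6 ± 9.11 to Stbd1 at 6.99 ± 0.653 CPM per kb, and there Gbe1 (54.9 ± 2.95) and Pygl (33.8 ± 1.95), and Gys1 (31.9 ± 3.01) and Gys2 (22.1 ± 3.74), did not overlap either.

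**Figure D1:**
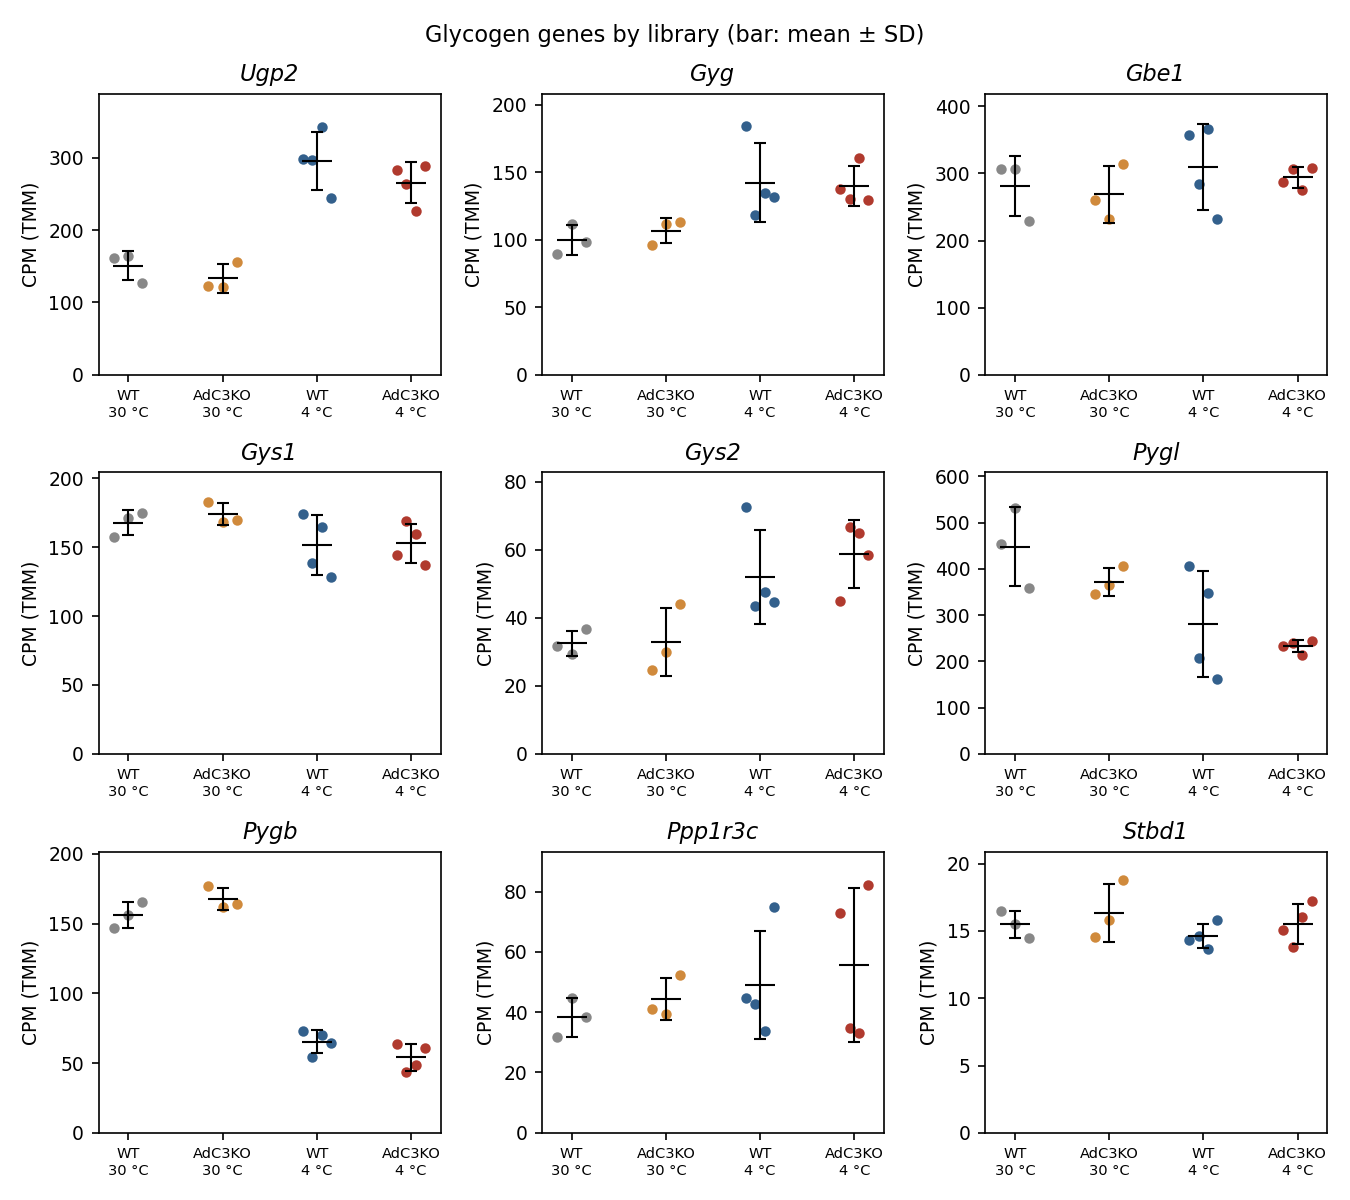
TMM-scaled CPM of the 9 genes (vertical axes from 0) in the 14 libraries of the 4 groups (horizontal axes), with each point a library and bars the mean ± SD. Ugp2 and Gyg stand higher and Pygb lower in every library at 4 °C than in any at 30 °C, and Ppp1r3c spreads from 33.1 to 82.2 CPM among the libraries at 4 °C.

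The first question was which of these transcripts change over 6 h of cold. In WT, 5 of the 9 passed the test over all genes, and they were Ugp2, Gyg and Gys2, which rose, and Pygb and Pygl, which fell. The same 5 passed in AdC3KO, in the same directions. Among all 15949 tested genes 61.4% were called in WT and 63.0% in AdC3KO, so the share of the 9 is not above the background. Called higher were 30.6% and lower 30.8% of all genes in WT, and 31.0% and 32.1% in AdC3KO. The median log2 fold change was 0.14 over the 9 genes and −0.03 over all genes in WT, and 0.13 and −0.06 in AdC3KO. The groups did not overlap for 4 of the 9 in WT (60.3% of all genes) and for 5 in AdC3KO (64.1% of all genes). In a bulk tissue sample, fewer cells of a type and less RNA per cell cannot be told apart. The summed level of 6 endothelial markers was 602 to 806 CPM at 30 °C and 999 to 1249 CPM at 4 °C, and that of 7 macrophage markers was 145 to 218 CPM at 30 °C and 186 to 492 CPM at 4 °C, with none of these markers at 0 in any library. The endothelial markers did not move together: in both genotypes Pecam1, Cdh5 and Kdr rose (log2 0.53 to 1.08 in WT and 0.94 to 1.43 in AdC3KO), and Tek, Tie1 and Emcn fell (−1.09 to −0.99 and −1.20 to −0.94). Of the macrophage markers, C1qb was higher in every library at 4 °C (32.7 to 90.5 CPM) than in any at 30 °C (16.4 to 28.8 CPM). With the genotypes pooled, the temperatures overlapped in the other macrophage markers, as for Csf1r (18.2 to 23.1 CPM at 30 °C and 12.0 to 35.1 CPM at 4 °C). Within WT alone, Mrc1 (15.4 to 19.9 and 29.2 to 72.4 CPM) and C1qa (19.4 to 26.0 and 33.5 to 90.1 CPM) were higher in every library at 4 °C. Within AdC3KO alone, Cd68 was (3.57 to 4.45 and 6.16 to 10.9 CPM). The part of these cell types in the changes was not tested.

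Ugp2, which supplies UDP-glucose, rose by about the same fold in both genotypes. It was at 161, 164 and 127 CPM in the WT libraries at 30 °C and at 299, 297, 342 and 244 CPM at 4 °C. In AdC3KO it was at 122, 122 and 156 CPM at 30 °C and at 283, 264, 227 and 289 CPM at 4 °C. Every library at 4 °C was above every library at 30 °C. The change was 1.96-fold in WT (log2 0.97, SE 0.13, adjusted p = 1.11e-05) and 1.99-fold in AdC3KO (log2 0.99, SE 0.13, adjusted p = 8.37e-06), and it was called in all 22 alternative analyses in each genotype.

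Gyg, the protein primer of glycogen, rose by less. WT libraries read 89.7, 111 and 98.4 CPM at 30 °C and 185, 118, 135 and 132 CPM at 4 °C. AdC3KO libraries read 95.8, 111 and 113 CPM at 30 °C and 138, 130.4, 161 and 129 CPM at 4 °C. The temperatures did not overlap in either genotype, and WT library 1 at 4 °C was the highest of the 14. The rise was 1.43-fold in WT (log2 0.51, SE 0.14, adjusted p = 0.00383) and 1.31-fold in AdC3KO (log2 0.39, SE 0.14, adjusted p = 0.0203). With all libraries kept, the AdC3KO call was lost with a filter on low counts at 5 CPM (log2 0.29, adjusted p = 0.0574) and without one (0.29, adjusted p = 0.0515). In AdC3KO the call was lost without library 1 at 30 °C (log2 0.32, adjusted p = 0.0912) or library 3 at 4 °C (0.33, adjusted p = 0.0537), both with muscle transcripts, and without all 5 such libraries (0.22, adjusted p = 0.397), and over all alternatives the adjusted p ran from 0.00297 to 0.397.

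The synthase genes differed in their response. Gys1 read 157, 171 and 175 CPM in WT and 183, 168 and 170.1 CPM in AdC3KO at 30 °C. At 4 °C it read 174, 139, 165 and 128 CPM in WT and 145, 169, 159.9 and 137 CPM in AdC3KO. These ranges overlapped, and the log2 fold change of −0.15 in WT (SE 0.11, adjusted p = 0.244) and −0.19 in AdC3KO (SE 0.11, adjusted p = 0.14) did not pass. Its 95% interval was −0.37 to 0.08 in WT and −0.41 to 0.04 in AdC3KO. The outcome depends on the filter on low counts. With a filter at 5 CPM Gys1 was called lower in WT (log2 −0.24, adjusted p = 0.0471) and AdC3KO (−0.28, adjusted p = 0.0245). Without a filter it was called lower in AdC3KO (−0.28, adjusted p = 0.0308).

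Gys2 started lower and rose. It read 31.6, 29.4 and 36.6 CPM in WT at 30 °C and 72.7, 43.3, 47.7 and 44.6 CPM at 4 °C. In AdC3KO it read 24.6, 29.9 and 44.2 CPM at 30 °C and 44.9, 66.8, 65.05 and 58.5 CPM at 4 °C. The temperatures did not overlap in either genotype, although in AdC3KO the highest library at 30 °C and the lowest at 4 °C nearly met. The rise was 1.60-fold in WT (log2 0.68, SE 0.22, adjusted p = 0.0161) and 1.79-fold in AdC3KO (log2 0.84, SE 0.22, adjusted p = 0.00438). In WT the call was lost without library 2 at 30 °C (log2 0.61, adjusted p = 0.0622) or library 1 at 4 °C (0.46, adjusted p = 0.0506), with a range of 0.00338 to 0.1005 over all alternatives, and in AdC3KO it was lost without the 5 libraries that held muscle transcripts (0.36, adjusted p = 0.36, range 0.000197 to 0.36).

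Per kb of exon, Gys2 transcripts stood at 0.350 ± 0.0356 of those of Gys1 in WT and 0.344 ± 0.115 in AdC3KO at 30 °C, and at 0.616 ± 0.1004 and 0.693 ± 0.0918 at 4 °C. The ratio was 0.362, 0.309 and 0.377 in WT and 0.243, 0.320 and 0.468 in AdC3KO at 30 °C. At 4 °C it was 0.752, 0.564, 0.521 and 0.628 in WT and 0.560, 0.712, 0.733 and 0.768 in AdC3KO, so that every library at 4 °C was above every library at 30 °C. A two-sided exact permutation test of the log2 ratio within genotypes gave a change of 0.93 (1.91-fold) and p = 0.000816, the smallest it can give, or 0.00163 after Benjamini-Hochberg adjustment over the 2 isoenzyme ratios tested. Without the 5 libraries that held muscle transcripts the change was 0.71, with an adjusted p of 0.05 where the smallest unadjusted p is 0.025.

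Gbe1, which makes the branches, did not pass the test. It ranged from 229 to 315 CPM over the 6 libraries at 30 °C and from 232 to 366 CPM over the 8 at 4 °C. The log2 fold change was 0.14 in WT (SE 0.15, 95% interval −0.18 to 0.47) and 0.13 in AdC3KO (SE 0.15, 95% interval −0.19 to 0.45).

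Of the phosphorylases, Pygb fell the most of the 9 genes. WT libraries read 147, 156 and 165 CPM at 30 °C and 72.8, 54.3, 70.1 and 64.5 CPM at 4 °C. AdC3KO libraries read 177, 162 and 164 CPM at 30 °C and 63.4, 43.7, 48.4 and 60.8 CPM at 4 °C. The lowest library at 30 °C was above the highest at 4 °C by a wide gap in both genotypes. The level was 2.39-fold lower in WT (log2 −1.25, SE 0.12, adjusted p = 2.51e-07) and 3.10-fold lower in AdC3KO (log2 −1.63, SE 0.12, adjusted p = 1.34e-08), and it was called in all 22 alternatives in each genotype.

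Pygl, the more abundant phosphorylase, fell with a wide spread. It read 453, 531 and 359 CPM in WT at 30 °C and 405, 207, 348 and 161 CPM at 4 °C. In AdC3KO it read 346, 365 and 405 CPM at 30 °C and 233, 240.3, 214 and 245 CPM at 4 °C. In WT at 4 °C libraries 2 and 4 were far below libraries 1 and 3, and library 1 was within the range at 30 °C, while in AdC3KO the temperatures did not overlap. The level was 1.60-fold lower in both genotypes (log2 −0.68, SE 0.25, adjusted p = 0.0312 in WT and 0.0307 in AdC3KO). The call was lost in WT without library 1 (log2 −0.67, adjusted p = 0.0729) or 2 (−0.53, 0.1296) at 30 °C or library 2 (−0.56, 0.0951) or 4 (−0.48, 0.0511) at 4 °C, and in AdC3KO without any 1 of the 7 libraries of that genotype (−0.61 to −0.72, adjusted p 0.0519 to 0.0954), and the adjusted p over all alternatives ran from 0.00517 to 0.13 in WT and from 5.32e-05 to 0.188 in AdC3KO. WT library 4 at 4 °C, the lowest in Pygl, had the highest summed macrophage markers (492 CPM, against 241 to 242 CPM in the other 3 WT libraries at 4 °C). WT library 2, also low in Pygl, was among those 3. In AdC3KO at 4 °C library 1 was highest in these markers (338 CPM, the others 186 to 199 CPM), with Pygl at 233 CPM, within the range of its group. The part of these cells was not tested.

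The ratio of Pygl to Pygb per kb was 2.15, 2.37 and 1.52 in WT and 1.37, 1.57 and 1.73 in AdC3KO at 30 °C. At 4 °C it was 3.88, 2.65, 3.46 and 1.75 in WT and 2.56, 3.83, 3.09 and 2.80 in AdC3KO. WT library 4 at 4 °C overlapped with the WT libraries at 30 °C, and the other libraries at 4 °C lay above all at 30 °C. By the same exact permutation test the log2 ratio was higher at 4 °C by 0.74 (1.67-fold, p = 0.00735, adjusted p = 0.00735), with 0.50 within WT and 0.97 within AdC3KO. Without the 5 libraries that held muscle transcripts the change was 0.57 and the adjusted p was 0.1.

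**Figure D2:**
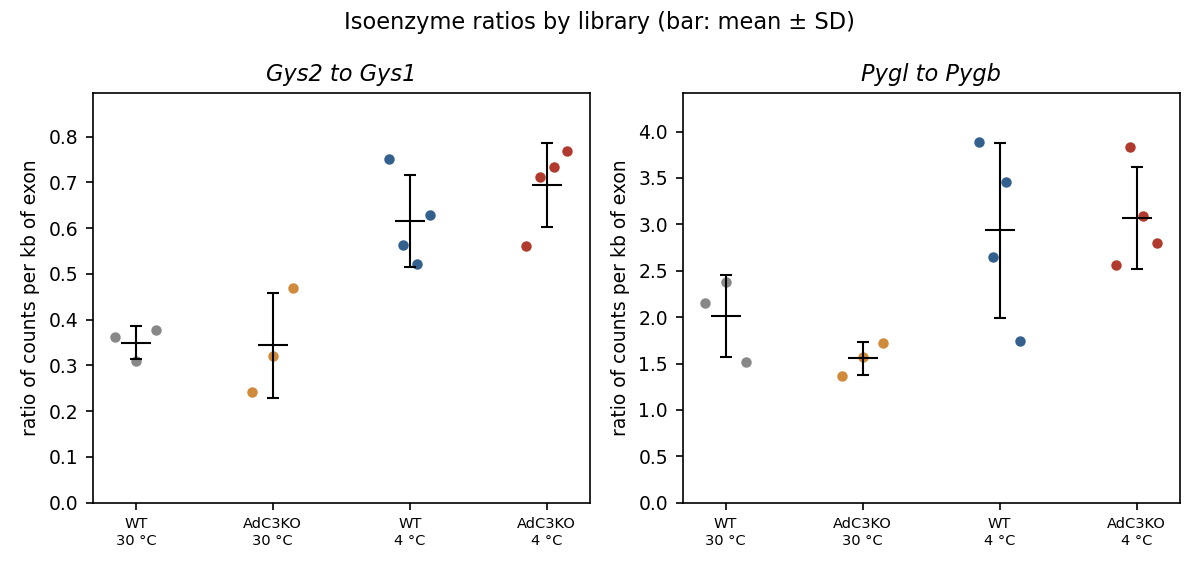
Ratio of counts per kb of exon of Gys2 to Gys1 (left) and of Pygl to Pygb (right), by library, for the 4 groups on the horizontal axis, with bars for the mean ± SD and vertical axes from 0. The Gys2 to Gys1 ratio is 0.243 to 0.468 at 30 °C and 0.521 to 0.768 at 4 °C, and for Pygl to Pygb only WT library 4 at 4 °C (1.75) lies within the range at 30 °C.

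Ppp1r3c, the phosphatase subunit that the 9 genes include, had the widest spread between libraries of a group. It read 31.8, 44.6 and 38.5 CPM in WT and 41.1, 39.4 and 52.2 CPM in AdC3KO at 30 °C. At 4 °C it read 44.9, 42.6, 33.7 and 74.8 CPM in WT and 72.9, 34.8, 33.1 and 82.2 CPM in AdC3KO. At 4 °C 3 libraries stood at 72.9 to 82.2 CPM and the other 5 lay within the range at 30 °C. Of these 3, WT library 4 and AdC3KO library 1 had the highest summed macrophage markers of their groups (492 and 338 CPM). AdC3KO library 4, the highest in Ppp1r3c, had 193 CPM. The part of macrophages was not tested here either. The pooled SD within groups was 0.49 on the log2 scale, against 0.37 for Pygl, 0.31 for Gys2 and 0.13 for Stbd1. The log2 fold change in the cold was 0.36 in WT (SE 0.35, 95% interval −0.42 to 1.13) and 0.34 in AdC3KO (SE 0.35, 95% interval −0.44 to 1.11).

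Stbd1 was the steadiest of the 9. It ranged from 14.5 to 18.8 CPM at 30 °C and from 13.7 to 17.2 CPM at 4 °C. The log2 fold change was −0.08 in both genotypes (SE 0.11), with 95% intervals of −0.33 to 0.16 in WT and −0.32 to 0.17 in AdC3KO.

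Some of these calls depend on the scaling of the libraries. Upper-quartile scaling moved the median of all genes to −0.27 in WT and −0.29 in AdC3KO, and the called members were then 1 higher and 4 lower in WT, and 2 higher and 4 lower in AdC3KO, where TMM gave 3 higher and 2 lower. Under it Gyg was no longer called (log2 0.27, adjusted p = 0.0937 in WT and 0.15, adjusted p = 0.337 in AdC3KO), nor was Gys2 in WT (0.44, adjusted p = 0.1005), and Gys1 (−0.39 and −0.42) and Stbd1 (−0.33 and −0.31) were called lower in WT and AdC3KO. Ugp2 and Pygb kept their calls and directions.

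The second question was whether loss of CLSTN3B in adipocytes altered these transcripts. At 30 °C none of the 9 passed the edgeR test, none had an unadjusted p below 0.05 and DESeq2 called none, where 0.0439% of all genes were called. The log2 differences of AdC3KO against WT ran from −0.27 for Pygl (95% interval −0.85 to 0.31) to 0.21 for Ppp1r3c (−0.62 to 1.03). For Gys1 the interval was −0.19 to 0.29, for Gyg −0.21 to 0.40, for Ugp2 −0.47 to 0.12 and for Pygb −0.18 to 0.38. The libraries of the genotypes overlapped for all 9, where 7.29% of all genes did not overlap.

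At 4 °C again none of the 9 was called by edgeR or DESeq2, where edgeR called 0.0502% of all genes, and 1 had an unadjusted p below 0.05. That gene was Pygb, which stood at 54.1 ± 9.52 CPM in the 4 AdC3KO libraries and at 65.4 ± 8.18 CPM in the 4 of WT (SD), a log2 difference of −0.27 (SE 0.12, 95% interval −0.52 to −0.03, adjusted p = 0.963). Its libraries overlapped between the genotypes, as did those of the other 8 genes, where 2.27% of all genes did not overlap. The interval was −0.20 to 0.22 for Gys1, −0.25 to 0.61 for Gys2, −0.29 to 0.24 for Gyg, −0.37 to 0.23 for Gbe1, −0.77 to 0.24 for Pygl, −0.41 to 0.11 for Ugp2, −0.53 to 0.90 for Ppp1r3c and −0.14 to 0.31 for Stbd1.

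The difference between the cold responses of the genotypes, the interaction, was tested directly and was called for 0 of the 9, and for 0% of all genes. Pygb had the largest value, −0.38 (unadjusted p = 0.0481), its fall being −1.63 in AdC3KO and −1.25 in WT, and it alone had an unadjusted p below 0.05. The interaction test uses the same libraries as the 2 cold comparisons and the comparison at each temperature, so these are not separate pieces of evidence.

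**Figure D3:**
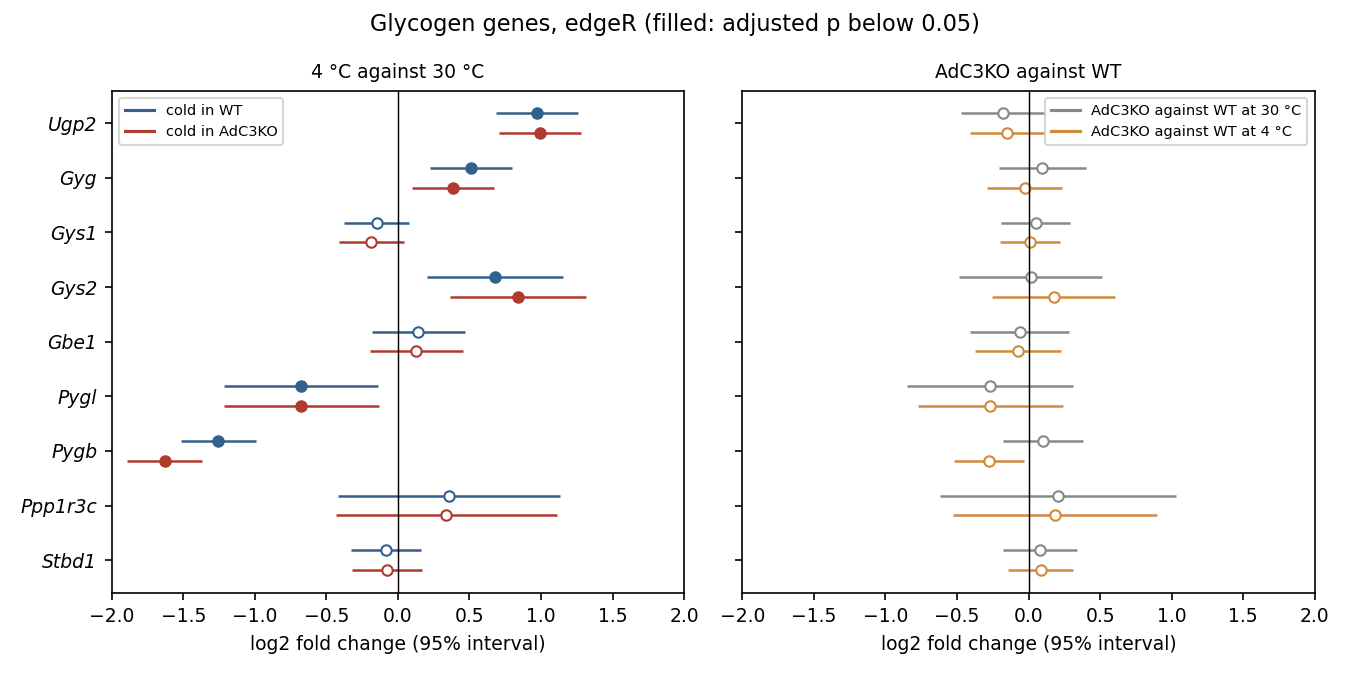
Log2 fold change with its 95% interval (horizontal axes) for the 9 genes (vertical axis), for 4 °C against 30 °C in each genotype (left) and for AdC3KO against WT at each temperature (right), with filled points for an adjusted p below 0.05. On the left 5 genes are filled in both genotypes, from −1.63 for Pygb to 0.99 for Ugp2, and on the right none is filled.

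For each member, the 2 genes with the most similar profile over the 14 libraries were found among 9405 genes of at least 5 CPM, by the root-mean-square difference between centred log2 profiles, as a description. Ugp2 was nearest to Tbc1d23 (difference 0.08 on the log2 scale) and the kinase Rock2 (0.09), and Pygb to Hspa12a (0.12) and Acad12 (0.13). Gyg was nearest to Decr1, an enzyme of fatty acid oxidation (0.09), and Dnajc15 (0.09), and Gbe1 to the glycolytic enzyme Eno1 (0.10) and the pyruvate dehydrogenase subunit Pdha1 (0.10). Pygl was nearest to Tkt, transketolase of the pentose phosphate pathway (0.19), and Klhl5 (0.21). Gys2 was nearest to Tspan6 (0.16) and Ubxn8 (0.18), Gys1 to Mtx3 (0.06) and Nln (0.07), Ppp1r3c to Cdca4 (0.26) and Zfp292 (0.28) and Stbd1 to Polr2g (0.08) and Zfp383 (0.08). The 14 libraries share the temperature difference, so genes with a like cold response come close on that ground alone.

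The members were then set among 32 other genes of glycogen handling, of which 31 passed the filter on low counts and Ppp1r3a did not. In the cold 12 were called higher and 12 lower in WT, and 11 higher and 12 lower in AdC3KO, or 24 and 23 of 31, where 61.4% and 63.0% of all genes were called. The 31 had a median log2 fold change of −0.04 in WT and −0.05 in AdC3KO, where that of all genes was −0.03 and −0.06. None was called between the genotypes at 30 °C (0 with an unadjusted p below 0.05), at 4 °C (1) or in the interaction (0), by edgeR or DESeq2. The other glycogen-targeting subunits of protein phosphatase 1, the group to which Ppp1r3c belongs, included the widest rise and the widest fall of the 31, those of Ppp1r3g and Ppp1r3b. Ppp1r3b, the subunit best known from liver, was at 179 to 269 CPM in WT at 30 °C and 20.96 to 29.6 CPM at 4 °C. The fall was 8.61-fold in WT (log2 −3.11, SE 0.17, adjusted p = 7.39e-10) and 8.22-fold in AdC3KO (−3.04, SE 0.16, adjusted p = 8.55e-10). Ppp1r3d fell by 1.79 in WT and 1.96 in AdC3KO on the log2 scale, and Ppp1r3e by 1.87 and 1.93.

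Ppp1r3g, a further subunit, rose from close to nothing. It had 4 counts over the 3 WT libraries at 30 °C and 407 over the 4 at 4 °C, a depth-scaled ratio of 96.7 with a 95% counting interval of 37.5 to 357. In AdC3KO it had 13 and 360 counts, a ratio of 24.8 (14.3 to 47.1). It read 1.94, 4.45, 4.46 and 7.95 CPM in WT and 1.86, 2.37, 10.02 and 2.11 CPM in AdC3KO at 4 °C. AdC3KO library 3, the highest, is also the one with the most muscle transcripts, and WT library 4, the next, had 2.61 CPM over the 13 muscle markers. The rise passed edgeR's test in both genotypes (adjusted p = 5.18e-05 and 0.000186). Of the catalytic subunits, Ppp1cb (log2 0.52 in both) and Ppp1cc (0.59 and 0.58) rose and Ppp1ca (−0.03 and −0.05) did not pass.

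Among the enzymes that supply glucose phosphate, the hexokinases rose, Hk2 from 204 ± 22.9 to 516 ± 41.0 CPM in WT (log2 1.34, SE 0.15) and by 1.59 in AdC3KO, and Hk1 by 0.98 and 1.07. Pgm1, the phosphoglucomutase that joins glucose 6-phosphate to the glycogen route, fell by 0.55 and 0.68. The lysosomal glucosidase Gaa rose by 0.65 and 0.62. Of the 5 phosphorylase kinase subunits 1 was called higher and 4 lower in WT and 0 higher and 3 lower in AdC3KO, among them the regulatory subunit Phka2 at −0.77 and −0.71, where 30.8% and 32.1% of all genes were called lower. Phkb in WT (log2 −0.32) lost its call in 4 of 22 alternatives, 3 of which left out WT library 2 at 30 °C or WT library 2 or 4 at 4 °C, with adjusted p of 0.0524 to 0.086. Phkg1 in AdC3KO (log2 −1.85) lost it in 5 of 21, 3 of which left out library 2 at 30 °C or library 2 or 4 at 4 °C, with adjusted p of 0.0502 to 0.107. Pygm, the muscle phosphorylase, did not pass in WT (−1.86, adjusted p = 0.0894) or AdC3KO (−0.18, adjusted p = 0.867), and AdC3KO library 3 at 4 °C had 21.9 CPM against 1.53 to 2.02 CPM in the other 3. Without that library Pygm was called lower in both genotypes (log2 −1.88, adjusted p = 8.65e-05, and −2.11, adjusted p = 8.91e-05), and over all alternatives the adjusted p ran from 8.65e-05 to 0.24 in WT and from 8.91e-05 to 0.984 in AdC3KO.

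The glucose 6-phosphate transporter of the endoplasmic reticulum, Slc37a4, fell from 24.3 ± 3.19 CPM (SD, n = 3) to 3.23 ± 0.404 CPM (SD, n = 4) in WT, which is 7.51-fold (log2 −2.91, SE 0.16, adjusted p = 3.96e-10), and 7.62-fold in AdC3KO. The glucose 6-phosphatase G6pc3 fell by 0.82 and 0.77 on the log2 scale. Epm2a, which encodes the glycogen phosphatase laforin, fell by 2.18 and 2.28, whereas Nhlrc1, which encodes its partner malin, a ubiquitin ligase, rose from 1.92 ± 0.178 to 5.52 ± 0.821 CPM in WT (log2 1.52, SE 0.21, adjusted p = 1.32e-05) and by 1.34 in AdC3KO. Among kinases of glycogen synthase, Gsk3a rose by 0.97 in both genotypes, and Gsk3b was lower by 0.25 in WT (adjusted p = 0.031) and 0.31 in AdC3KO (adjusted p = 0.00882). The call of Gsk3b was lost in WT without library 1 (adjusted p = 0.0656) or 2 (0.194) at 30 °C or library 1 (0.0809) or 4 (0.0957) at 4 °C, and in AdC3KO without library 1 (0.054) or 3 (0.0533) at 4 °C, with ranges over all alternatives of 0.000304 to 0.194 and 0.000113 to 0.0754. The catalytic AMPK subunits, kinases that sense energy status, rose, Prkaa2 by 0.91 and 0.93 and Prkaa1 by 0.49 and 0.62.

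**Figure D4:**
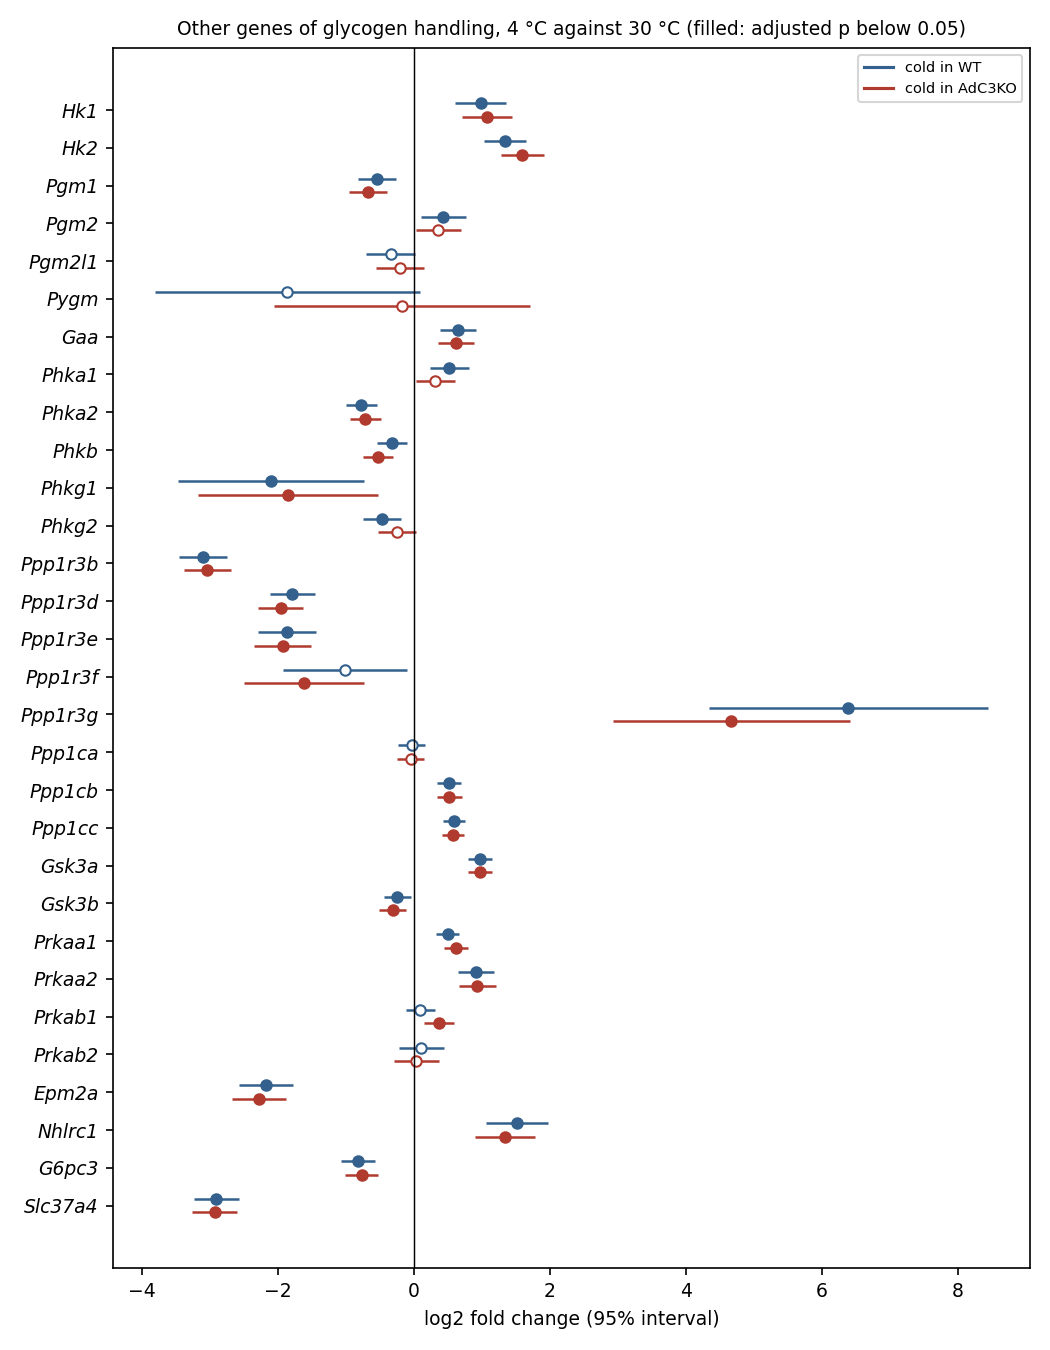
Log2 fold change at 4 °C against 30 °C with its 95% interval (horizontal axis) for other genes of glycogen handling (vertical axis, by role), in WT and AdC3KO, with filled points for an adjusted p below 0.05. Ppp1r3b and Slc37a4 lie lowest, between −3.11 and −2.91 in both genotypes, and the fitted value of Ppp1r3g depends on the prior count, since its counts at 30 °C are 4 and 13.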

How the data were processed

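RNA from BAT was sequenced from NEBNext Ultra II libraries, per the labels' protocols. Reads were trimmed with Trimmomatic by the authors, who aligned them to GRCm38 with STAR and deposited whole-number counts per gene made with HTSeq, per the series' design text. Versions, annotation release and strand setting were not given in the sources used here. Table lines that name no gene stayed out of library sizes (no feature 5.95% to 8.19%, ambiguous 5.53% to 6.03% of reads), and symbols from GENCODE matched 99.41% of identifiers.

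Groups came from the sample titles. All 14 libraries entered 1 edgeR 4.0.16 fit (R 4.3.3, filterByExpr at a minimum count of 10, TMM factors 0.822 to 1.21, robust quasi-likelihood test) of the 4 group means. Gene p-values were adjusted by Benjamini-Hochberg over 15949 genes at 0.05. DESeq2 1.42.0 and the other settings are alternatives. The step was run on simulated counts in which few genes changed, and that cannot check the scaling where most genes change. Levels per kb used the joined length of all annotated exons. Ratios used a prior count of 0.5, and counting intervals (95%) cover counting error only. All pairs of libraries in a group differed beyond sampling noise. The members and lists were chosen with earlier results of these data known. The text names the members, the list of 32 other genes, the 2 genes most like each member, and the checks Ucp1 and Clstn3. Other brown adipocyte, endothelial and macrophage markers were named after their values were seen. The counts over that list include 1 gene that is not reported here.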

Additional observations from a re-analysis of the deposited data

Results flagged for a closer look

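In groups of 4 libraries, the highest or lowest library was compared with the other 3. Of 80 groups tested over the members and the other glycogen genes, 10 (12.5%) held a library that stood far from the rest, where chance gives about 1 in 20. Among the members this was Gys2, at 72.7 CPM in WT library 1 at 4 °C against 43.3 to 47.7 CPM. The same library was also apart in Pgm2 (16.8 CPM, others 11.4 to 11.5 CPM), Phkg2 (5.60 CPM, others 7.55 to 7.91 CPM) and Nhlrc1 (4.30 CPM, others 5.79 to 6.08 CPM). AdC3KO library 3 at 4 °C, with the most muscle transcripts (512 CPM over 13 markers), was apart in Pygm (21.9 CPM, others 1.53 to 2.02 CPM), Phkg1 (2.10 CPM, others 0.388 to 0.548 CPM) and Ppp1r3g (10.02 CPM, others 1.86 to 2.37 CPM). The remaining 3 were Pgm2l1 in WT library 4 at 4 °C (9.79 CPM, others 7.54 to 7.65 CPM), Phka1 in WT library 3 at 4 °C (23.6 CPM, others 17.7 to 18.4 CPM) and Prkab1 in AdC3KO library 4 at 4 °C (31.1 CPM, others 33.3 to 33.7 CPM).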

How the results depend on the processing

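No called change of a member or other glycogen gene reversed under any of the 22 alternatives, and Ugp2 and Pygb were called in all of them in both genotypes. The members called in the cold in WT were 5, and 3 without the filter on low counts. Leaving out 1 library gave 3 to 5 in WT, with 3 without WT library 2 at 30 °C, and 3 to 5 in AdC3KO, with 3 without AdC3KO library 1 at 30 °C or library 3 at 4 °C. Without the 5 libraries that held muscle transcripts 2 were called in AdC3KO, where 1 library was left at 30 °C and was assumed to vary like the other groups. That setting gave changes in log2 ratio of 0.71 for Gys2 to Gys1 and 0.57 for Pygl to Pygb, neither past the threshold, with fewer libraries. The log2 change of Pygm in AdC3KO was −2.08 there, and −0.18 with all libraries. Leaving out 1 library gave ratio changes of 0.82 to 1.06 and 0.64 to 0.85. The cause of other lost calls was not tested. Signs of changes that were not called flipped in some settings, for members in 43 of 189 cases in the interaction, 8 of 198 between the genotypes at 30 °C and 10 of 198 at 4 °C. No genotype call was gained.

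Equal replicate numbers did not pair the libraries, with correlations of −0.29 to 0.29 over 19 pairs, 1 above 0.1, and 3 of 14 libraries closest to their own number. A fit with the replicate number as a block called 4 members in the cold in each genotype, 24 other glycogen genes in each, and none between genotypes. For the ratios no such fit was made, and libraries 1 to 3 were instead paired by number within each genotype. The libraries numbered 4 at 4 °C were left out, among them the WT library that overlapped in Pygl to Pygb. The ratio changes were then 0.90 and 0.87. An exact test that flips the signs of the paired differences gave p = 0.03125, the smallest possible. Depth limits Ppp1r3g at 30 °C (4 counts in WT and 13 in AdC3KO) and Ppp1r3f (28 to 81 counts per group) most.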
